A study of Mus musculus with 6 samples.

Results

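The genes described here are 36 transporters, channels and pumps that carry ions, minerals, amino acids, water and drugs across the membranes of the mammary epithelium, chosen by symbol from a list covering calcium, phosphate, zinc, copper, iodide, chloride, sodium, potassium, amino acids, water and the ABC exporter Abcg2. They are 36 of the 55487 genes in the count table. Of them, 34 passed the filter on low counts, as did 17165 genes in all. The calcium-sensing receptor Casr (5 counts, all in WT mouse 2) and the chloride and iodide exchanger Slc26a4 (4 counts, all in IL-21isoTg mouse 3) did not pass, and no difference is given for them.

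The samples were mammary epithelial cells (MECs) from 10-week-old female BALB/c mice, 3 wild-type (WT) and 3 IL-21isoTg, 1 library per mouse. IL-21isoTg mice carry a transgene for an isoform of interleukin-21 expressed specifically in T cells, and the promoter that drives it is not given in the sources used here. Mice of both genotypes were virgin, none received a treatment named in the labels, and estrous stage was randomized. MECs were obtained by depletion alone, with magnetic beads taking out leukocytes (CD45), endothelial cells (CD31) and fibroblasts (CD140a), so they mixed luminal with basal cells. The comparison asks which transporter genes differ in MECs between mice with and without the T cell transgene at an age before tumors are palpable.

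During lactation the luminal cells of the gland move calcium, phosphate, zinc, iodide, amino acids and water from blood into milk. Calcium enters at the basal side and is pumped into the Golgi or across the apical membrane, zinc is taken up by ZIP proteins (Slc39 family) and exported by ZnT proteins (Slc30 family), and amino acids cross the basal side mainly through exchangers and sodium-coupled carriers. In the virgin gland many of the same genes are also used for the cell's own supply, and some mark other cell types, such as Aqp1 in endothelium.

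Levels are TMM-normalized CPM, in which the counts of each mouse are scaled to a common library size. Total counts ran from 15902886 to 25719244 per mouse, so that 3 counts, taken as the floor, correspond to 0.112 to 0.280 CPM. Differences are log2 fold changes, IL-21isoTg minus WT, with standard errors (SE) from edgeR's quasi-likelihood test, and p-values were adjusted over all 17165 genes with the Benjamini-Hochberg method. Luminal keratin genes were high in all 6 mice (Krt8 between 1630 and 3009 CPM), which fits the label, but 2 mice stood apart. WT mouse 1 lay farthest out on the first principal component (score -62.7, against -26.6 to 33.3 in the other 5 mice). In IL-21isoTg mouse 3, 40.9% of all counts fell on a list of 16 salivary gland genes, against 4.89 to 22.9% in the other mice, and its normalization factor was 0.675. The labels and the methods name no dissection or sequencing batch.

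The first 250 bases upstream of the start are shown for 3 members: Slc39a8 and Orai1, whose levels did not overlap between the genotypes, and Slc30a4, a zinc exporter whose levels overlapped. The sequences are RefSeq windows on GRCm38.p6, each ending at the base before the annotated gene start, at chr3:135825029-135825278 (plus strand), chr5:123014824-123015073 (plus strand) and chr2:122702664-122702913 (minus strand). Capitals mark letters that match a motif searched on both strands.
Slc39a8: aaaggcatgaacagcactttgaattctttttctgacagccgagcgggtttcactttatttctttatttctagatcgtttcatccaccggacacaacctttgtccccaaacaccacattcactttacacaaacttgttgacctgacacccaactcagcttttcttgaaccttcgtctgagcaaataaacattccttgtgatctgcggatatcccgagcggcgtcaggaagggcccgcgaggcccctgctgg
Orai1: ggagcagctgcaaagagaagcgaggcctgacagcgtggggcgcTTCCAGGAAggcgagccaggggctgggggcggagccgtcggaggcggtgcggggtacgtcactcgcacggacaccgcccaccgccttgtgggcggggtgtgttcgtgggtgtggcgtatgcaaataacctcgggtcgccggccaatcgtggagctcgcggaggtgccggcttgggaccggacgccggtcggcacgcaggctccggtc
Slc30a4: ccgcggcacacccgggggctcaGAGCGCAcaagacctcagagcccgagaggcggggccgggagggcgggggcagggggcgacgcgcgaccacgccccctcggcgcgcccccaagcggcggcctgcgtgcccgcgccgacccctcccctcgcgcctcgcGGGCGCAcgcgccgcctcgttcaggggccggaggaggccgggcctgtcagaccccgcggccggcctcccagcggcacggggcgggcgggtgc

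The capitals in Orai1 match TTCNNNGAA, the palindromic core bound by STAT factors, which 1 of the 28 members with a RefSeq window held and which 7.02% of 32851 windows of all genes held. The capitals in Slc30a4 match, on the opposite strand, the core TGCACNC or TGCGCNC of metal response elements, through which the zinc sensor MTF1 acts. That core was present in 14 of the 28 members, or 15 of their 36 windows, and in 21.4% of all windows. The zinc genes Slc30a1, Slc30a2, Slc30a4 and Slc39a8 all held it, Slc39a8 in a second window at an alternative start and not in the one printed. Slc39a14, the other zinc member, had no window. G and C made up 71.2, 64 and 82.8% of the windows of Slc30a1, Slc30a2 and Slc30a4, against a median of 52.4% over all windows. Windows of equal base composition were not compared. TGATGNAA, a core of the amino acid response element, was found in 0 of the members and 3.45% of all windows. These matches describe letters in the windows and no binding was measured.

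None of the 34 tested transporter genes passed the adjusted threshold, and neither did any other gene: 0 of 17165 genes were called by edgeR's quasi-likelihood test (0% of those tested), with a smallest adjusted p of 0.126. At an unadjusted p under 0.05, 999 genes (5.82%) were counted, 548 of them higher in IL-21isoTg mice (3.19%) and 451 lower (2.63%). Among the transporters, 7 were counted at that level, all of them higher in IL-21isoTg mice: the zinc importers Slc39a8 and Slc39a14, the exporter Abcg2, the large neutral amino acid carrier Slc7a5, the calcium channel Orai1, the sodium channel subunit Scnn1g and the phosphate carrier Slc34a2. In 5 of the 34, the 3 IL-21isoTg mice all lay above the 3 WT mice, which held for 951 of 17165 genes (5.54%), and in 0 all lay below, which held for 1123 genes (6.54%). The count of 7 became 3 without WT mouse 3 (Abcg2, Slc7a5 and Slc39a8) and 11 without WT mouse 1 (10 higher and 1 lower). The share over all genes moved as well, from 5.82% to 3.89% without WT mouse 3 and to 6.93% without WT mouse 1. DESeq2 called 76 of 15922 genes (0.477%), of which Slc39a8 and Abcg2 are members, and edgeR's likelihood ratio test called 65 genes with the same 2 members, whereas limma-voom called 0.

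The log2 fold change was positive for 26 of the 34 transporters and negative for 8, with a median of 0.30, against a median of -0.02 and 47.9% positive over all tested genes. A WT mouse had the lowest level of the 6 mice for 28 transporters (82.4%), which was so for 48.1% of all tested genes. An IL-21isoTg mouse had the highest level for 24 (70.6%), against 48.2%. The members were chosen with earlier results of these data known, so these shares are a description and not an independent comparison. The SE of the log2 fold change had a median of 0.36 over the transporters, against 0.29 over all tested genes.

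**Figure D1:**
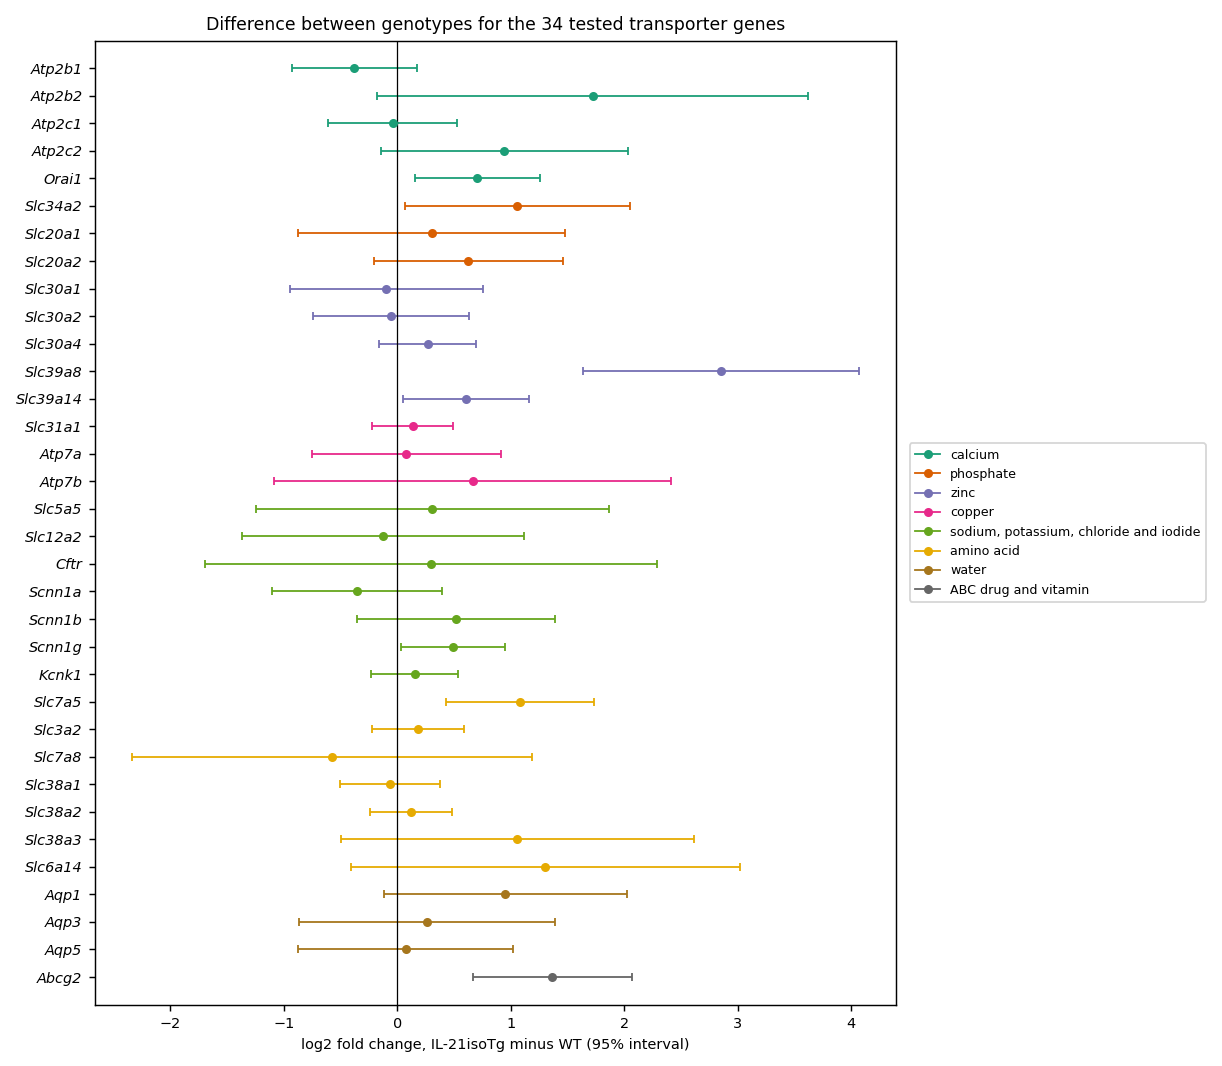
Log2 fold change (IL-21isoTg minus WT, x axis) with its 95% interval for each of the 34 tested transporter genes (y axis), coloured by what they carry. The intervals of 7 genes lie wholly above 0, Slc39a8 farthest at 2.85, and none lies wholly below 0.

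The widest separation between the genotypes was in a zinc importer. Slc39a8 (ENSMUSG00000053897, chr3:135825279-135888572), encoding ZIP8, a zinc and manganese importer, was at 4.19, 5.62 and 2.61 CPM in WT mice 1 to 3 and at 51.4, 25.4 and 12.6 CPM in IL-21isoTg mice 1 to 3. The lowest IL-21isoTg mouse was above the highest WT mouse, and the IL-21isoTg mice differed from each other by 4.08-fold. The difference was 7.22-fold, or 2.85 on the log2 scale (SE 0.53, 95% interval 1.63 to 4.07), with an adjusted p of 0.418 in edgeR's quasi-likelihood test. It was 2.21 without IL-21isoTg mouse 1 and 3.23 without IL-21isoTg mouse 3, and DESeq2 gave an adjusted p of 2.69e-06.

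Slc39a14 (ENSMUSG00000022094, chr14:70303469-70351425), encoding ZIP14, which takes up zinc, manganese and iron, was more abundant in read terms and less separated. It was at 96.6, 130 and 96.5 CPM in WT mice and at 162, 211 and 119 CPM in IL-21isoTg mice, with IL-21isoTg mouse 3 below WT mouse 2. The log2 fold change was 0.61 (SE 0.24, adjusted p = 0.809 in edgeR's quasi-likelihood test), a 1.52-fold difference.

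The levels of the 3 ZnT exporters overlapped between the genotypes. Slc30a1, the exporter of the plasma membrane, was at 28.3 ± 16.1 CPM in WT and 26.4 ± 4.36 CPM in IL-21isoTg mice (mean ± SD, n = 3 each), with WT mouse 1 highest at 46.7 CPM, and its log2 fold change of -0.10 became 0.49 without that mouse. Slc30a2, which loads zinc into secretory vesicles in lactation, was low and even, between 2.89 and 3.87 CPM in all 6 mice (log2 fold change -0.06, 95% interval -0.74 to 0.63). Slc30a4, another vesicular zinc exporter, was at 51.4 ± 6.75 and 61.9 ± 11.2 CPM, a log2 fold change of 0.27 (95% interval -0.16 to 0.69). These intervals, and that of Slc30a1 (-0.95 to 0.75), lie below the interval of Slc39a8 (1.63 to 4.07). Differences between the genes were not tested.

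Other genes of zinc handling were examined as a list of 24 (further ZIP and ZnT genes, metallothioneins, Mtf1 and Tmem163), of which 18 were tested. Of these, 11 had a positive log2 fold change, 5 had all IL-21isoTg mice above all WT mice, and 3 had an unadjusted p under 0.05, all higher in IL-21isoTg mice and none past the adjusted threshold. Mt2, a metallothionein that binds zinc and copper, was at 498, 315 and 376 CPM in WT and 636, 601 and 798 CPM in IL-21isoTg mice (log2 fold change 0.78, SE 0.23, adjusted p = 0.809 in edgeR). Mt1 was at 303 to 501 CPM and 494 to 1035 CPM (0.85, SE 0.32), and its lowest IL-21isoTg mouse was just below its highest WT mouse. Slc39a3, encoding ZIP3, was at 12.6 to 19.2 CPM and 21.9 to 24.6 CPM (0.52, SE 0.20). Summed over the list, levels were 1077 to 1402 CPM in WT and 1572 to 2283 CPM in IL-21isoTg mice, with p = 0.1 in an exact two-sided permutation test, the smallest p that 3 mice against 3 can give. Mt1 and Mt2 made up most of this sum, and the other 22 genes summed to 403 to 460 CPM in WT and 442 to 477 CPM in IL-21isoTg mice, which overlapped (exact permutation p = 0.4).

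**Figure D2:**
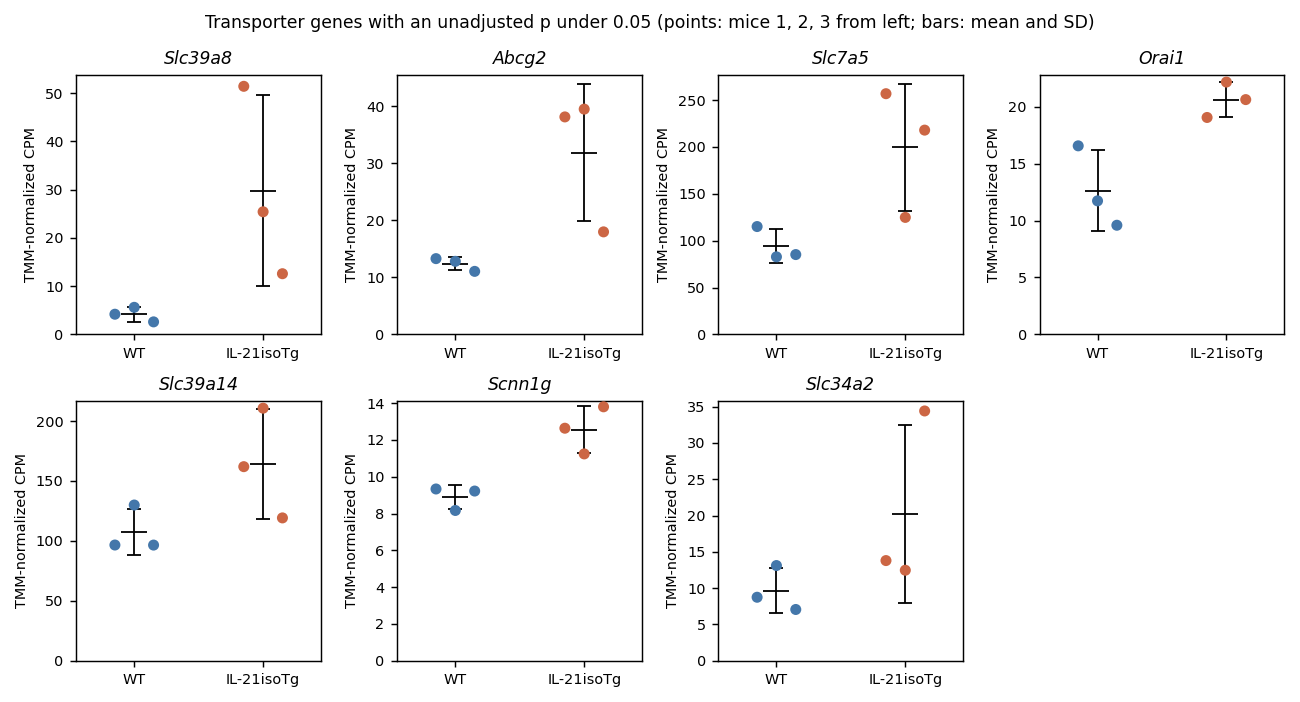
TMM-normalized CPM (y axis, from 0) in each mouse for the 7 transporter genes with an unadjusted p under 0.05, with WT mice in blue, IL-21isoTg mice in orange, horizontal bars for the mean and whiskers for the SD (n = 3). Slc39a8, Abcg2, Slc7a5, Orai1 and Scnn1g show no overlap, whereas Slc39a14 and Slc34a2 do, and Slc34a2 has its high point in IL-21isoTg mouse 3.

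Abcg2 (ENSMUSG00000029802, chr6:58584523-58695676) encodes the breast cancer resistance protein, an ABC exporter of drugs that also secretes riboflavin into milk. It was at 13.3, 12.8 and 11.1 CPM in WT mice, which lay close together, and at 38.2, 39.5 and 18 CPM in IL-21isoTg mice, where mouse 3 was nearest to the WT range. The 2.58-fold difference (log2 fold change 1.37, SE 0.30, 95% interval 0.67 to 2.07) had an adjusted p of 0.645 by edgeR's quasi-likelihood test, and 0.0101 by DESeq2. Leaving out 1 mouse at a time, the log2 fold change stayed between 1.18 and 1.65.

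In the list of 17 other ABC, vitamin and nucleoside transporters, 14 were tested, of which 8 had a positive log2 fold change. Only Slc52a2, a riboflavin carrier, had an unadjusted p under 0.05, at 8.43 to 11.6 CPM in WT and 12.8 to 18.4 CPM in IL-21isoTg mice (0.59, SE 0.23). In this list 3 genes had every IL-21isoTg mouse below every WT mouse, namely the carnitine and ergothioneine carrier Slc22a4 (-0.61), the thiamine carrier Slc19a2 (-0.47) and the exporter Abcc1 (-0.22), none with an unadjusted p under 0.05.

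Among the amino acid members, Slc7a5 was the 1 gene whose groups did not overlap. Slc7a5 (ENSMUSG00000040010, chr8:121881150-121907694) encodes LAT1, the light chain of an exchanger that brings in leucine and other large neutral amino acids. Its levels were 115, 82.8 and 85.2 CPM in WT and 257, 125 and 218 CPM in IL-21isoTg mice. The groups did not overlap, although IL-21isoTg mouse 2 exceeded WT mouse 1 by little. The log2 fold change was 1.08 (SE 0.28, 95% interval 0.43 to 1.73, adjusted p = 0.774 in edgeR), a 2.12-fold difference.

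The other amino acid members overlapped between the genotypes. Slc3a2, the heavy chain that LAT1 needs at the membrane, was at 268 ± 12.1 CPM in WT and 304 ± 45.3 CPM in IL-21isoTg mice. Its log2 fold change was 0.18 (95% interval -0.22 to 0.58). That interval overlaps the one of Slc7a5 (0.43 to 1.73), and a difference between the genes was not tested. The sodium-coupled glutamine carriers Slc38a1 and Slc38a2 had log2 fold changes of -0.07 and 0.12, with SE of 0.19 and 0.15. Slc38a2 ranged only from 252 to 310 CPM over the 6 mice. Slc38a3, which also carries glutamine, was at 10.6 and 12.1 CPM in IL-21isoTg mice 1 and 2, at 1.21 CPM in mouse 3, and at 3.12 to 4.90 CPM in WT mice. Its log2 fold change was 1.06 (SE 0.67), and 1.55 without IL-21isoTg mouse 3.

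Slc6a14 and Slc7a8 each followed 1 mouse. Slc6a14, a broad sodium- and chloride-coupled amino acid carrier, was at 47.9 CPM in IL-21isoTg mouse 3 and at 5.35 to 15.3 CPM in the other 5 mice, and its log2 fold change of 1.31 became 0.03 without that mouse. Slc7a8, encoding LAT2, was at 23.6 CPM in WT mouse 1 and at 2.35 to 11.4 CPM in the others, and its log2 fold change of -0.58 became 0.81 without that mouse.

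Among 30 other amino acid carriers, 26 were tested and 22 had a positive log2 fold change. Unadjusted p-values under 0.05 were found for 3, all higher in IL-21isoTg mice. Slc43a2, encoding the facilitative leucine carrier LAT4, was at 25.8, 28.6 and 38.5 CPM in WT and 63.9, 70.7 and 58.4 CPM in IL-21isoTg mice (log2 fold change 1.06, SE 0.19, adjusted p = 0.412 in edgeR), the smallest adjusted p among the transporters examined, members included. The glutamine carrier Slc1a5 was at 51.9 to 61.0 CPM and 64.5 to 93.8 CPM (0.51, SE 0.18), and the glycine carrier Slc6a9 at 9.83 to 21.1 CPM and 20.5 to 36.5 CPM (0.77, SE 0.33). The peptide carrier Slc15a2 was the 1 gene of this list with every IL-21isoTg mouse below every WT mouse (-0.47, SE 0.23).

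Calcium transport gave 1 member whose groups did not overlap. Orai1 (ENSMUSG00000049686, chr5:123015074-123030456), the pore of the store-operated calcium channel, was at 16.6, 11.7 and 9.58 CPM in WT and 19.0, 22.1 and 20.6 CPM in IL-21isoTg mice. WT mouse 1 was the closest to the IL-21isoTg range, and the log2 fold change of 0.71 (SE 0.24, adjusted p = 0.809 in edgeR) was 0.96 without it. Orai1 shares 7 bases of exon with Gm2479 on the opposite strand.

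The calcium pumps overlapped between genotypes. Atp2c2, the secretory pathway pump SPCA2 of secretory epithelia, was at 8.57 CPM in WT mouse 1, at 30.9 and 31.5 CPM in the other WT mice, and at 29.8 to 59.0 CPM in IL-21isoTg mice (log2 fold change 0.94, SE 0.47, and 0.56 without WT mouse 1). Its sister pump Atp2c1 (SPCA1) was at 93.1 ± 29.1 and 90.6 ± 8.88 CPM. The plasma membrane pump Atp2b1 was at 148 ± 30.7 and 114 ± 30.1 CPM (-0.38, SE 0.24). Atp2b2, the plasma membrane pump that exports calcium into milk, was barely detected, with 1 to 11 counts in WT and 5 to 38 counts in IL-21isoTg mice, and its log2 fold change of 1.72 had a 95% interval of -0.17 to 3.62 and was 1.22 without WT mouse 1. Atp2c1 shares 1837 exon bases with Aste1 on the opposite strand, and Aste1 itself had 91 to 233 counts per mouse.

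Of 20 other calcium genes 18 were tested, 14 had a positive log2 fold change and none had an unadjusted p under 0.05. The epithelial calcium channel Trpv6 was at 1.78 to 2.35 CPM in WT and 2.54 to 4.76 CPM in IL-21isoTg mice (0.79, SE 0.37). The Golgi cation transporter Tmem165 was at 25.7 to 29.6 CPM and 30.1 to 31.5 CPM (0.16, SE 0.15). Slc8a1 was at 2.39 to 4.09 CPM and 4.37 to 5.32 CPM (0.56, SE 0.32). These 3 had no overlap between the groups.

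Phosphate carriers had positive log2 fold changes, all with overlapping groups. Slc34a2 (ENSMUSG00000029188, chr5:53038081-53071664), the sodium-phosphate carrier NaPi-IIb of apical membranes, was at 8.75, 13.1 and 7.06 CPM in WT and 13.8, 12.5 and 34.4 CPM in IL-21isoTg mice. IL-21isoTg mouse 3 was highest and IL-21isoTg mouse 2 lay below WT mouse 2. The log2 fold change of 1.06 (SE 0.43, adjusted p = 0.809 in edgeR) became 0.45 without IL-21isoTg mouse 3. Slc20a1 (PiT-1), a general phosphate importer, was at 343 CPM in WT mouse 1 and at 70.2 to 286 CPM in the others. Its log2 fold change of 0.30 became 1.14 without WT mouse 1 and -0.08 without WT mouse 2. Slc20a1 shares 452 exon bases with 9830144P21Rik on the opposite strand, a gene with 351 to 1871 counts. Slc20a2 (PiT-2) was at 44.3 ± 15.6 and 68.6 ± 31.8 CPM, highest at 104 CPM in IL-21isoTg mouse 3, and its log2 fold change of 0.63 became 0.21 without that mouse. The 3 tested genes of the list of 5 other phosphate genes had log2 fold changes between -0.17 and 0.06.

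The sum of the salivary gland list and the levels of Slc34a2 and Slc20a2 were highest in the same mouse. Summed over the list, levels were 54015 to 230056 CPM in WT and 41942 to 606552 CPM in IL-21isoTg mice (exact permutation p = 0.6). Of its 16 genes 13 were tested, 12 had a positive log2 fold change, and Muc19, Smgc and Smr2 were at or near 0 in all mice. The tested gene with a negative value was Mucl2 (-7.04, SE 2.13), at 323 CPM in WT mouse 2 and 0.22 to 5.04 CPM in the others. Dcpp1, Dcpp2 and Dcpp3 were also highest in WT mouse 2, Dcpp1 at 11804 CPM against 7502 CPM in IL-21isoTg mouse 3. Bpifa2 and Amy1 gave most of the sum in IL-21isoTg mouse 3, at 372441 and 142046 CPM. In all, 8 of the 34 tested members were highest in IL-21isoTg mouse 3 (23.5%), where the list summed to 606552 CPM, as were 21.6% of all tested genes. They were Slc34a2, Slc20a2, Slc6a14, Cftr, Scnn1g, Slc31a1, Atp7a and Slc38a1. WT mouse 1 and IL-21isoTg mouse 1, with similar sums of 230056 and 239978 CPM, had 8.75 and 13.8 CPM of Slc34a2. An alternative edgeR fit took the log2 of the salivary gland share of counts as a covariate. There the log2 fold change was 0.88 for Slc34a2 (SE 0.45), 0.47 for Slc20a2 (SE 0.21), 0.81 for Slc6a14 (SE 0.47), -0.46 for Cftr (SE 0.56) and 0.46 for Scnn1g (SE 0.20).

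**Figure D3:**
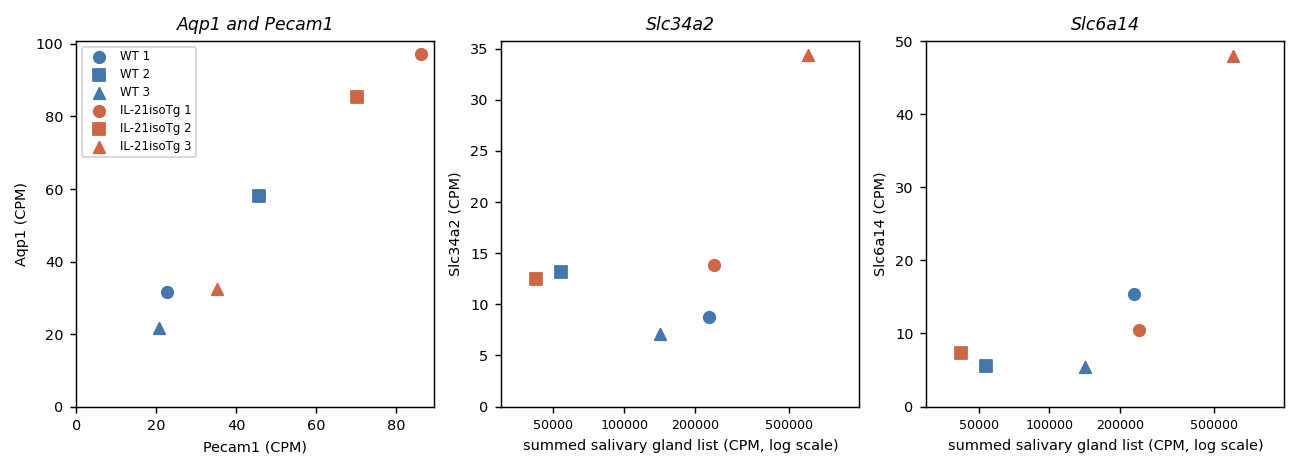
Levels in CPM of Aqp1 against the endothelial marker Pecam1 (left), and of Slc34a2 (middle) and Slc6a14 (right) against the summed salivary gland list on a log scale, 1 point per mouse. Aqp1 orders the 6 mice as Pecam1 does, an order that most other endothelial genes of the list do not give. Slc34a2 and Slc6a14 have their highest value, 34.4 and 47.9 CPM, in IL-21isoTg mouse 3, the mouse with the highest salivary sum.

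Among the members that carry sodium, potassium, chloride and iodide, Scnn1g was the 1 gene with an unadjusted p under 0.05. Scnn1g (ENSMUSG00000000216, chr7:121734479-121768475), the gamma subunit of the epithelial sodium channel, was at 9.34, 8.17 and 9.22 CPM in WT and 12.6, 11.2 and 13.8 CPM in IL-21isoTg mice. The spread within each genotype was small, and the groups did not overlap (log2 fold change 0.49, SE 0.20, adjusted p = 0.809 in edgeR). The other subunits of the channel overlapped between the genotypes. Scnn1a, the alpha subunit, was at 74.6 ± 30.2 and 58.4 ± 13.5 CPM (-0.35, SE 0.33), and Scnn1b, the beta subunit, at 27.5 ± 13.8 and 39.3 ± 5.93 CPM (0.52, SE 0.38). Both had their lowest level in WT mouse 1, at 40.5 and 12.2 CPM, and without it the log2 fold changes were -0.64 and 0.18.

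Slc12a2 and Slc5a5 showed the same low mouse. Slc12a2 (NKCC1), the basolateral importer of sodium, potassium and chloride, was at 480 CPM in WT mouse 1, at 2507 and 2099 CPM in the other WT mice and at 1194 to 1846 CPM in IL-21isoTg mice. Slc5a5, the sodium-iodide symporter that brings iodide into milk, was at 20.2 CPM in WT mouse 1 and at 124 to 212 CPM in the other 5 mice. Their log2 fold changes of -0.13 (95% interval -1.37 to 1.12) and 0.31 (-1.24 to 1.86) were -0.56 and -0.19 without that mouse. Cftr, the apical chloride channel, was at 9.14 CPM in IL-21isoTg mouse 3 and at 0.86 to 4.18 CPM in the others, and its log2 fold change of 0.30 was -1.40 without that mouse. Kcnk1, a background potassium channel, was even, at 68.1 ± 9.39 and 75.8 ± 8.44 CPM. It shares 179 exon bases with Gm45875 on the opposite strand.

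Of 36 other genes of sodium, potassium and chloride transport, 32 were tested and 21 had a positive log2 fold change. Kcnk6, a potassium channel related to Kcnk1, alone had an unadjusted p under 0.05, at 6.63, 3.36 and 6.57 CPM in WT and 15.3, 10.3 and 19.7 CPM in IL-21isoTg mice (log2 fold change 1.44, SE 0.35, adjusted p = 0.705 in edgeR). The bicarbonate carrier Slc4a4 (0.66, SE 0.30) and the pump regulator Fxyd3 (0.46, SE 0.23) also had every IL-21isoTg mouse above every WT mouse.

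The levels of the 3 copper members overlapped between the genotypes. The copper importer Slc31a1 (CTR1) was at 56.8 ± 0.85 CPM in WT, with a ratio of the highest to the lowest WT mouse of 1.03, and at 62.5 ± 9.07 CPM in IL-21isoTg mice (log2 fold change 0.14, 95% interval -0.22 to 0.49). The copper pump Atp7a was at 11.6 ± 3.63 and 12.3 ± 4.95 CPM. Its relative Atp7b varied widely within each genotype, from 1.44 to 13.9 CPM in WT and from 4.38 to 17.0 CPM in IL-21isoTg mice (0.66, SE 0.76). That log2 fold change was 1.80 without WT mouse 1, 1.04 without IL-21isoTg mouse 3 and 0.15 without IL-21isoTg mouse 1. In a list of 8 other copper genes, all tested, 5 had a positive log2 fold change. The metalloreductase Steap3 was at 12.7, 34.6 and 30.5 CPM in WT and 51.9, 57.8 and 39.2 CPM in IL-21isoTg mice (0.94, SE 0.35, adjusted p = 0.809 in edgeR). Its groups did not overlap, and it was the 1 gene of that list with an unadjusted p under 0.05. Slc31a2, a relative of Slc31a1, had a log2 fold change of 0.61 (SE 0.28) with overlapping groups.

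Aquaporins overlapped between the genotypes. Aqp5, the apical water channel of secretory epithelia, was at 174 CPM in WT mouse 1, 650 and 454 CPM in WT mice 2 and 3, and 434 to 468 CPM in IL-21isoTg mice (log2 fold change 0.07, SE 0.41, and -0.29 without WT mouse 1). Aqp3, the basolateral channel for water and glycerol, was at 53.3, 11.8 and 18.4 CPM in WT and 31.2 to 34.7 CPM in IL-21isoTg mice. Its log2 fold change of 0.26 was 1.16 without WT mouse 1. The ratio of the highest to the lowest mouse was 1.08 for Aqp5 and 1.11 for Aqp3 in IL-21isoTg mice, and 3.75 and 4.51 in WT mice. Of 8 other aquaporins, 4 were tested, with log2 fold changes from -2.72 (Aqp9) to 1.41 (Aqp7).

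Aqp1, the water channel found on endothelium and other cells, was at 31.6, 58.1 and 21.6 CPM in WT and 97.1, 85.4 and 32.5 CPM in IL-21isoTg mice (log2 fold change 0.95, SE 0.46). Its 6 mice stood in the same order as those of Pecam1, which encodes the CD31 used to remove endothelium and was still at 20.6 to 86.2 CPM. Emcn gave that order too, but the endothelial genes Cdh5, Kdr, Tek, Tie1, Vwf and Erg gave other orders. All 8 endothelial marker genes had a positive log2 fold change and none was at 0. They summed to 95.1 to 244 CPM in WT and 144 to 344 CPM in IL-21isoTg mice (exact permutation p = 0.2). In bulk RNA, fewer cells of a type and less RNA per cell cannot be told apart.

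The sums of the fibroblast and adipocyte marker lists were also higher in each IL-21isoTg mouse than in each WT mouse, beside Slc39a8, Abcg2, Slc7a5 and Orai1. Slc39a8 ordered the 6 mice as the endothelial gene Cdh5 did, but Cdh5 was the 1 of the 8 endothelial genes whose groups did not overlap. Its log2 fold change of 1.22 (SE 0.33) was the highest of the 8, which ran down to 0.31. Pecam1 and Kdr gave other orders, with WT mouse 2 above IL-21isoTg mouse 3. Fibroblast genes summed to 1971 to 3475 CPM in WT and 4356 to 5018 CPM in IL-21isoTg mice, with 8 of 9 positive and none at 0. Col1a1, Col1a2 and Col3a1 gave most of these sums. Groups did not overlap for 5 of the 9, but did for Dcn, Pdgfra (which encodes CD140a), Pdgfrb and Fap, and Dcn was lower in IL-21isoTg mice (-0.27, SE 0.28). Adipocyte genes summed to 60.3 to 134 CPM and 144 to 403 CPM, with all 6 tested genes positive and Adipoq, Lep, Cidec and Retn at 0 in at least 1 mouse. Fabp4 and Lpl gave most of the adipocyte sums, and of the 6 tested genes Lpl alone had groups without overlap. The smallest possible exact permutation p of 0.1 was reached by the full sum of each list, and sums without the most abundant genes were not compared. Basal epithelial genes, which belong to the MECs, summed to 1727 to 2103 CPM in WT and 1964 to 3295 CPM in IL-21isoTg mice (exact permutation p = 0.2). Of the 8 genes, all tested and none at 0, 7 had a positive log2 fold change (median 0.50), and 2 had an unadjusted p under 0.05, the oxytocin receptor gene Oxtr (1.21, SE 0.41) and the myoepithelial contractile gene Cnn1 (0.96, SE 0.33).

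The milk protein genes were higher in IL-21isoTg mice without overlap for 8 of 8, and summed to 523 to 1733 CPM in WT and 8818 to 20366 CPM in IL-21isoTg mice (exact permutation p = 0.1). Elf5, the transcription factor of secretory luminal cells, was at 95.8 to 131 CPM and 142 to 231 CPM (log2 fold change 0.70, SE 0.22). Both Elf5 and Csn2 ranked the IL-21isoTg mice in the order 3, 2, 1 from the lowest, as Slc39a8 did. The WT order differed, since WT mouse 3 was the highest WT mouse for Elf5 and Csn2 and the lowest for Slc39a8. Csn3, Lalba and Csn1s2b of the same list ranked the IL-21isoTg mice 3, 1, 2. Summed luminal markers were at 6585 to 8797 CPM in WT and 5873 to 10171 CPM in IL-21isoTg mice (exact permutation p = 1). The macrophage genes Adgre1 and Itgam were at 0 to 2.42 and 0 to 0.144 CPM, and the 12 genes of that list, of which 4 of 9 tested were positive, summed to 170 to 233 CPM and 150 to 371 CPM (exact permutation p = 0.4). Cd14 alone gave most of these sums, and the other 11 genes summed to 19.4 to 29.1 CPM and 21.5 to 25.1 CPM (exact permutation p = 1). T cell genes were low, with sums of 6.63 to 11.6 CPM and 10.9 to 11.7 CPM. The part of any of these lists in the transporter differences was not tested.

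**Figure D4:**
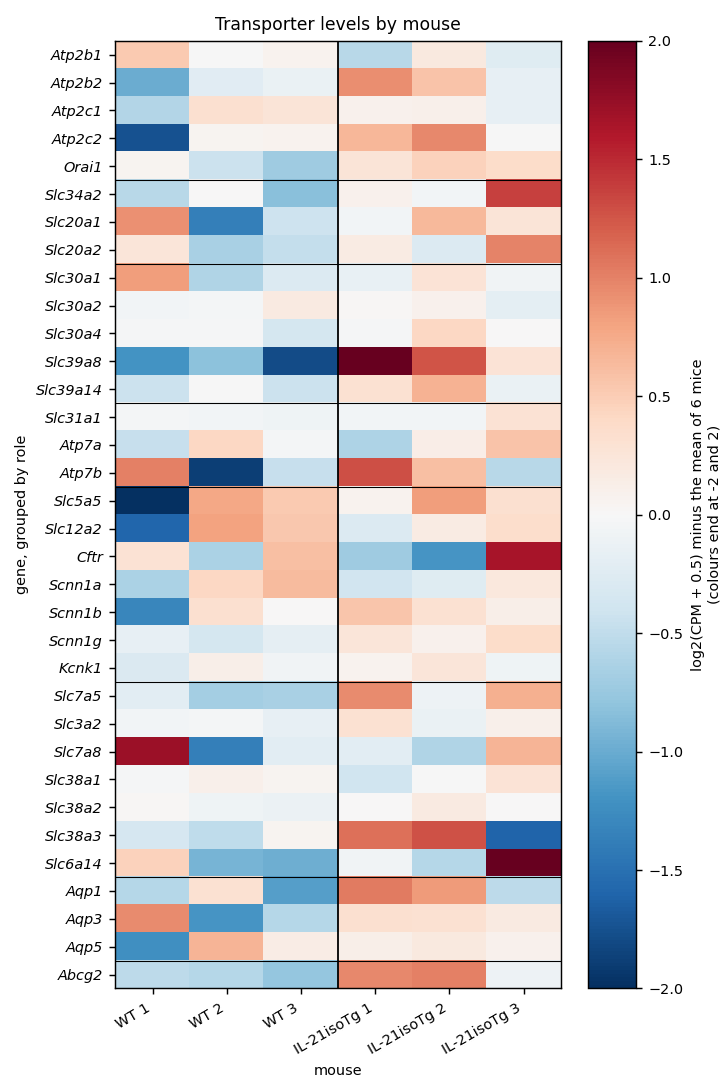
Level of each of the 34 tested transporters (rows, grouped by what they carry) in each mouse (columns) as log2(CPM + 0.5) minus the mean of the 6 mice, with red above and blue below that mean and colours ending at -2 and 2. The rows of Slc39a8, Abcg2 and Slc7a5 are blue in WT and mostly red in IL-21isoTg mice, WT mouse 1 is darkest blue for Slc5a5, Slc12a2 and Atp2c2, and IL-21isoTg mouse 3 is darkest red for Slc6a14 and Cftr.

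Between genes, levels were compared as CPM per kilobase of exon, averaged over the 6 mice. The highest were the water channel Aqp5 (168 CPM per kilobase) and the ion importer Slc12a2 (149), followed by Slc3a2 (81.0), Slc5a5 (49.8), Slc7a5 (39.7), Slc20a1 (36.7), Kcnk1 (32.2) and Slc38a2 (31.2). The mice of Aqp5 and Slc12a2 overlapped in level, as did those of every other pair of neighbours in this order among the 34 tested genes. The members whose groups differed most were not the abundant ones apart from Slc7a5. Abcg2 stood at rank 26 with 2.72 CPM per kilobase, Slc39a8 at rank 27 with 2.22, Scnn1g at rank 23 with 3.59 and Orai1 at rank 20 with 7.24. At the low end were Cftr (0.44), Atp2b2 (0.05), Slc26a4 (0.02) and Casr (0.01).

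**Figure D5:**
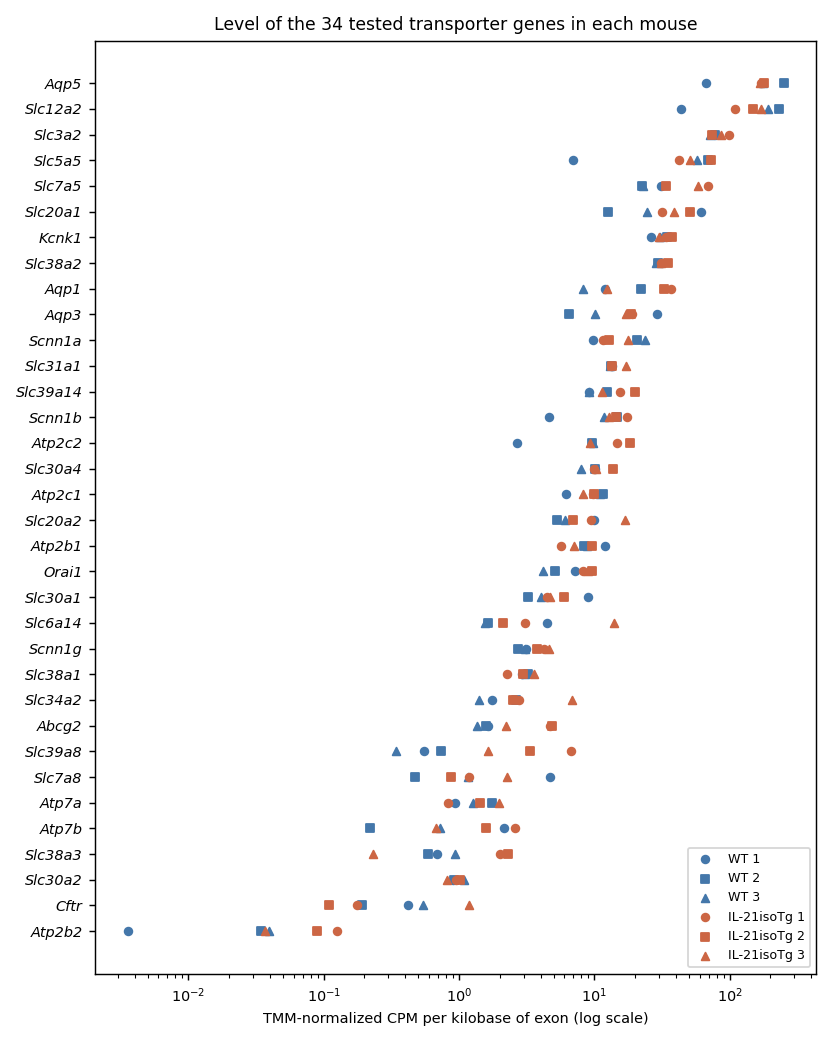
TMM-normalized CPM per kilobase of exon (x axis, log scale) of each tested transporter (y axis, ordered by the mean of 6 mice), 1 point per mouse. Levels run from Aqp5 at a mean of 168 down to Atp2b2 at 0.05, and the point of WT mouse 1 lies far to the left of the other mice for Slc5a5, Slc12a2 and Atp2c2.

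Taking the other transporters as 1 list of 157 genes, 132 were tested, 0 were called by edgeR and 9 had an unadjusted p under 0.05, all higher in IL-21isoTg mice. The log2 fold change was positive for 94 of the 132, with a median of 0.12, and the IL-21isoTg mice lay above for 16 and below for 4. Among the members the corresponding counts were 7 of 34 with an unadjusted p under 0.05, 26 positive, 5 above and 0 below. Over all tested genes, 5.82% had an unadjusted p under 0.05, 47.9% were positive, 5.54% lay above and 6.54% below. Members and lists were chosen with earlier results of these data known, and the sets were not tested against each other.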

How the data were processed

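RNA was sequenced from MECs of 3 WT and 3 IL-21isoTg mice (poly(A) selection, directional library kit, 150-bp paired-end reads). The deposited counts are whole reads per gene and were not normalized by the authors. The submitters' processing notes name FastQC 0.11.7, Trimmomatic 0.38, HISAT2 2.1.0, SAMtools 1.9, featureCounts 1.6.3 and DESeq2 1.24.0 and the build mm10. The annotation release and the strand setting of the counting are not given in the sources used here, so reads of overlapping genes on opposite strands cannot be told apart. The deposited counts divided by size factors were not used, and of the authors' comparison table, which holds a log2 fold change, its standard error, a statistic and p-values, only the gene start and end (other columns unread) were used.

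Genes were filtered with edgeR 4.0.16 (filterByExpr, minimum count 10, minimum total 15), normalized with TMM and tested with the quasi-likelihood test (robust dispersions, genotype as the only term) in R 4.3.3, with Benjamini-Hochberg adjustment over 17165 genes and a threshold of 0.05. CPM are counts scaled to a common library size. DESeq2 1.42.0 and limma 3.58.1 (voom) were alternatives. Single values per mouse were compared with exact two-sided permutation tests. Floors cover counting error only. The 95% intervals of log2 fold changes come from the quasi-likelihood fit. Scripts were tested on simulated data, and plots used Python 3.11.15 with matplotlib 3.10.9. Exon lengths and positions came from GENCODE M21 (GRCm38), which gave the deposited start and end for all 36 members. Promoter windows came from RefSeq.

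All 36 members are named, those with an unadjusted p under 0.05 or without overlap in every mouse, and of the other lists those with an unadjusted p under 0.05. Further genes of those lists, such as those without overlap, were named after their values were seen. The members and lists were chosen with earlier results of these data known. Alternatives were other normalizations, filters, tests, a replicate block, the salivary gland share (on the log2 scale) as a covariate, and leaving out each mouse.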

Additional observations from a re-analysis of the deposited data

How the results depend on the processing

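The count of transporter genes past the adjusted threshold was 0 by edgeR's quasi-likelihood test and stayed 0 under the other normalizations and filters, limma-voom, the newer edgeR quasi-likelihood form, the replicate block, the salivary gland covariate and leaving out each mouse (range 0 to 0). It was 2 with DESeq2 and 2 with edgeR's likelihood ratio test. Slc39a8 had log2 fold changes of 2.86 and 2.85 there and Abcg2 1.37 and 1.37, with adjusted p of 2.69e-06 and 0.000208 for Slc39a8 and 0.0101 and 0.0295 for Abcg2. Over all alternatives the adjusted p ran from 2.69e-06 to 0.994 for Slc39a8 and from 0.0101 to 0.994 for Abcg2. The count over all genes, 0, was 14 with no filter on low counts, 76 with DESeq2, 65 with the likelihood ratio test, 1 with the salivary gland share as a covariate, and 0 to 6 leaving out 1 mouse, with 6 without WT mouse 3. The cause was not tested.

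Directions that reversed were all of genes whose log2 fold change was near 0 or had a wide interval. Atp2c1 was 0.012 with limma-voom, 0.0085 with the replicate block and 0.028 with the covariate. Slc30a1 was 0.044 with limma-voom and 0.038 with the block, and Atp7a was -0.028 with limma-voom. Slc12a2 was 0.18 with limma-voom, 0.15 with the block and 0.024 with the covariate, and Cftr was -0.71, -0.29 and -0.46 in the same order. Leaving out 1 mouse gave ranges that crossed 0 for Atp2c1 (-0.26 to 0.12), Slc20a1 (-0.083 to 1.14), Slc30a1 (-0.36 to 0.49), Slc30a2 (-0.12 to 0.035), Atp7a (-0.22 to 0.35), Slc5a5 (-0.19 to 0.77), Slc12a2 (-0.56 to 0.27), Cftr (-1.40 to 0.79), Slc7a8 (-1.05 to 0.81), Slc38a1 (-0.23 to 0.093), Aqp3 (-0.10 to 1.16) and Aqp5 (-0.29 to 0.51). The cause was not tested. The remaining members kept the sign of their log2 fold change in each alternative run.

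Mice of the 2 genotypes share only a replicate number: the deviations of same-numbered mice from their group means correlated at -0.26, 0.096 and -0.056. With the replicate block, 0 genes were called and 6 transporters had an unadjusted p under 0.05, against 7. Over all genes that share was 3.83% with the block, against 5.82%. Not every mouse correlated best with its own number. The replicate block left Scnn1g and Slc34a2 without an unadjusted p under 0.05 and added Aqp1. The salivary gland covariate left out the same 2 genes and added Aqp1 and Atp2c2, for a count of 7, beside 6.13% of all genes. Counts per mouse ran from 1 to 38 for Atp2b2, 23 to 98 for Cftr and 31 to 97 for Slc30a2, with SE of 0.82, 0.86 and 0.30 for their log2 fold changes.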

Other observations

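Carriers of glucose and lactate were examined as a further list of 9 genes, all tested. All 9 had a positive log2 fold change, between 0.0026 and 0.39 with a median of 0.25, and 0 had an unadjusted p under 0.05 or groups without overlap in edgeR's quasi-likelihood test. Slc2a1, the glucose importer GLUT1, was at 101 to 163 CPM in WT and 99.9 to 183 CPM in IL-21isoTg mice (log2 fold change 0.27, SE 0.28). The lactate carriers Slc16a1 and Slc16a3 had log2 fold changes of 0.39 and 0.39, with SE of 0.27 and 0.35, and were highest in IL-21isoTg mouse 2 at 53.3 and 4.73 CPM. Slc35a2, which brings UDP-galactose into the Golgi, was at 24.5 to 28.9 CPM and 27.2 to 36.6 CPM. Slc5a1, the sodium-glucose carrier SGLT1, was even, between 29.4 and 36.7 CPM in all 6 mice.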
